A study of Mus musculus with 11 samples.

Results

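The genes described here are 40 genes of T and natural killer (NK) lymphocytes, of 27179 genes in the aorta count file. They were taken by symbol, with chemokine receptors left out, and all 40 symbols were found. Sorted by what they do, 7 encode the T cell receptor and its CD3 chains, 10 are coreceptors and costimulatory or adhesion receptors, 8 signal inside the cell, 7 are lineage factors or the IL-7 receptor, and 8 are cytotoxic or NK genes.

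RNA was sequenced from whole aorta of C57BL/6J mice in 11 libraries. The 4 WT_CD libraries are wild type on chow with 10% of calories from fat for 15 weeks. The 4 WT_HFD_LNAME libraries are wild type and got food with 45% of its calories as fat from an age of 6 to 7 weeks, for 15 weeks, and then for 5 more weeks together with L-NAME, an inhibitor of nitric oxide synthases. The 3 KO_HFD_LNAME libraries are Mpst-/- and had the same diet and inhibitor; MPST is one of the enzymes that produce hydrogen sulfide. One comparison sets treated against chow wild-type aorta, and the other asks what loss of Mpst adds under that treatment. Diet and inhibitor were given together, so they cannot be told apart, and no knockout library on chow was analysed here. For the chow libraries no age at start and no weeks beyond the 15 are given. Age and time on diet may therefore also differ between chow and treated libraries. Whether libraries come from different mice is not stated, so the p-values reflect the spread among these libraries only, which may be technical.

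T cells recognise peptide on MHC molecules through a receptor of alpha and beta chains, which has no signalling tail of its own and signals through the CD3 chains. The kinase LCK, carried by the coreceptors CD4 and CD8, phosphorylates CD3, ZAP70 binds there, and ZAP70 phosphorylates the scaffold LAT. NK cells and cytotoxic T cells kill with perforin and granzymes. In a healthy artery, T cells are few and lie mainly in the adventitia, the outer layer, and nearby lymphoid tissue; they enter the wall in hypertension and atherosclerosis.

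Total counts ran from 8665968 to 15340697 per library, so 3 counts correspond to 0.170 to 0.358 CPM (counts scaled to a common library size, with TMM factors). Mpst had 3, 5 and 4 counts in the knockout libraries and 265 to 532 in the wild-type ones. KO_HFD_LNAME 1 stands apart: it held 707 counts of Glycam1, an adhesion ligand of lymph node venules, against 0 to 5 in the other 10 libraries, and 33 of the lymph node chemokine Ccl19, against 0. WT_HFD_LNAME 3 and 4 were rich in cardiac muscle transcripts, and the ribosomal precursor Rn45s took 10.1% and 17.4% of counts in WT_CD 1 and 2, against 0.815% to 2.98% in the rest. For knockout against treated wild type, the main sums, counts of called genes and fold changes of the main genes are therefore given with and without KO_HFD_LNAME 1.

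Across the 40 genes together, chow libraries held 68 to 167 counts, treated wild-type libraries 141 to 277, and knockout libraries 1, 2 and 3 held 2087, 654 and 580. All 3 knockout libraries lay above all 8 wild-type libraries. In CPM the sums were 9.71 ± 2.34 (SD, n = 4), 15.96 ± 5.17 (n = 4) and 79.2 ± 70.5 (n = 3). The mean sum was 4.96-fold higher in knockout than in treated wild-type aorta, and 2.41-fold higher without KO_HFD_LNAME 1. In CPM that library was the highest for 39 of the 40 genes; the exception was Gzmb. In bulk tissue, more cells of a type and more RNA per cell cannot be told apart.

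**Figure D1:**
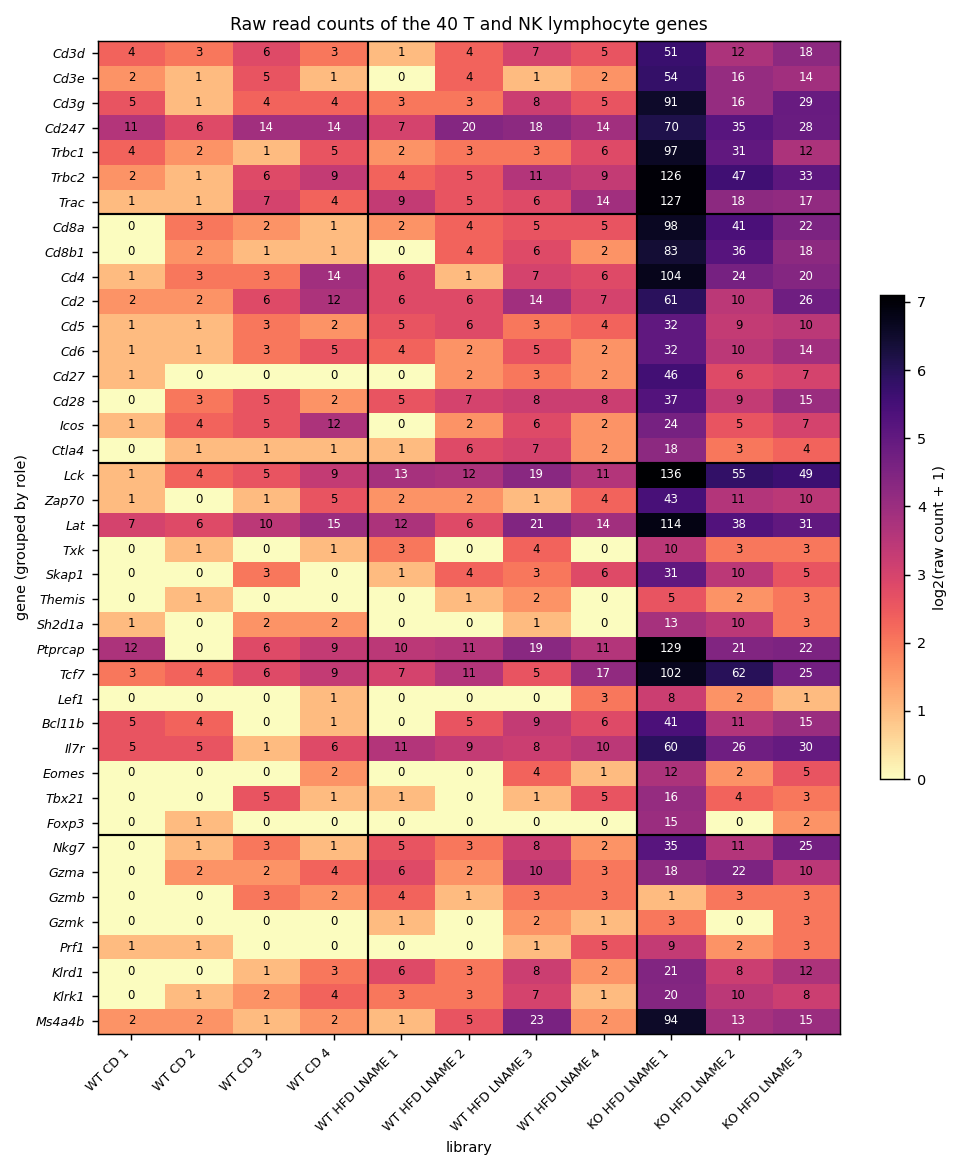
Raw read counts of the 40 genes (rows, ordered by role, lines between roles) in the 11 libraries (columns, lines between groups); colour is log2(count + 1) and the number is the count. Wild-type cells hold at most 23 counts, and KO HFD LNAME 1 is the darkest column, up to 136 counts for Lck.

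**Figure D2:**
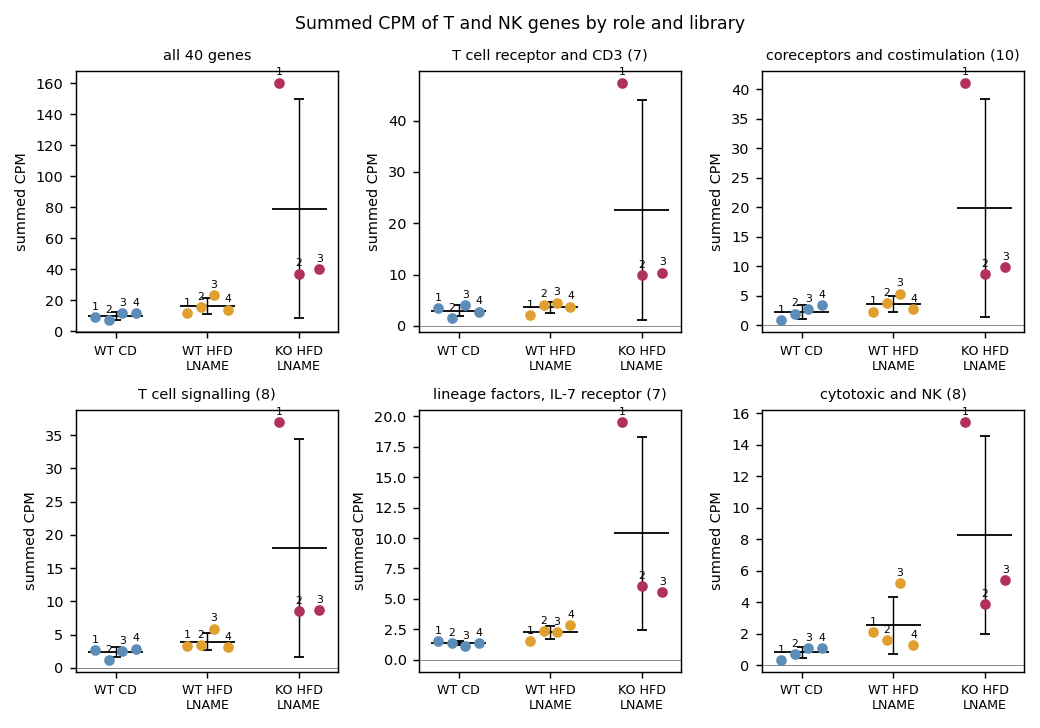
Summed CPM of each role in each library (points, numbered by replicate), with the group mean (line) and SD (bar), on a linear axis that differs between panels. KO HFD LNAME 1 is the highest point of every panel, with 161 CPM for all 40 genes; knockout libraries 2 and 3 lie near 40 CPM, above the wild-type libraries, except for the cytotoxic and NK genes, where they lie near WT HFD LNAME 3.

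The low levels set what could be tested. Of the 40 genes, 17 passed the filter on low counts, and the other 23 were not tested in the main fit. On the wild-type libraries alone only Cd247, Lck, Lat and Ptprcap pass that filter, so the other 13 entered through the knockout libraries. Counts over the 17 are therefore descriptions of what was tested and do not stand for all 40.

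The receptor constant regions are encoded by Trac for the alpha chain and by Trbc1 and Trbc2 for the beta chain. Trbc1 and Trbc2 lie 7.06 kb apart on chromosome 6 and are near-identical copies: over 512 bases of their GENCODE M21 transcripts, 488 (95.31%) are the same, including the first 259 in a row. Bases 361 to 510 are shown because they hold most of the differences; capitals mark the 21 bases that differ, and reads outside such places could count for either gene or neither. These constant regions also lie inside the annotated receptor loci Tcrb and Tcra.

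Trbc1: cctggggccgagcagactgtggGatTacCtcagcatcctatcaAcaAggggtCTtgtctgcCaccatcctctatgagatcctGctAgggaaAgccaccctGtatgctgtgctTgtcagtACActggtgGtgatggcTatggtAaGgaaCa

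Trbc2: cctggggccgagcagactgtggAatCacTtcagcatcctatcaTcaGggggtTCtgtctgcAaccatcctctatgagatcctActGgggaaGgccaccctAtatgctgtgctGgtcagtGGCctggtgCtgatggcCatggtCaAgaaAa

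Trbc2 had 126, 47 and 33 counts in KO_HFD_LNAME 1, 2 and 3, against 4, 5, 11 and 9 in treated wild-type and 2, 1, 6 and 9 in chow libraries. Trbc1 had 97, 31 and 12 counts, against 2, 3, 3 and 6 and then 4, 2, 1 and 5. Trac had 127, 18 and 17, against 9, 5, 6 and 14 and then 1, 1, 7 and 4. For each of the 3 genes every knockout library exceeded every wild-type library, while treated and chow wild-type libraries overlapped. Against treated wild-type, Trbc2 stood at a log2 fold change of 3.03 (SE 0.62), Trbc1 at 3.52 (SE 0.74) and Trac at 2.53 (SE 0.79), with edgeR adjusted p of 0.726, 0.726 and 0.762. Among the 32 genes with at least 20 counts over the knockout libraries, Trac was the most concentrated in KO_HFD_LNAME 1, where its CPM was 8.93 times the mean of the other 2 knockout libraries. Among the 40 genes Trbc2 had the highest level per kb of exon in every group, 0.553 ± 0.367 CPM per kb in chow, 0.844 ± 0.372 in treated wild-type and 7.05 ± 6.04 in knockout aorta (SD, n = 4, 4 and 3).

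The CD3 genes Cd3d, Cd3e and Cd3g form a cluster on chromosome 9, where Cd3g and Cd3d point away from each other 1.34 kb apart and Cd3e lies 11.7 kb beyond Cd3d. Cd3e, a signalling chain needed for receptor assembly, had 54, 16 and 14 counts in the knockout libraries, against 0, 4, 1 and 2 in treated wild-type and 2, 1, 5 and 1 in chow. Cd3g had 91, 16 and 29 counts, against 3, 3, 8 and 5 and then 5, 1, 4 and 4. Cd3d had 51, 12 and 18, against 1, 4, 7 and 5 and then 4, 3, 6 and 3. The clustered CD3 genes thus shared the order of the receptor genes, with no overlap between knockout and wild type. Their log2 fold changes against treated wild-type were 3.70 (SE 0.86), 3.05 (SE 0.70) and 2.44 (SE 0.67), with an edgeR adjusted p of 0.726 each. Cd247, the zeta chain, also used by NK cell receptors, had more counts in wild type than the others, with 6 to 20 per library, and 70, 35 and 28 in the knockout ones, and its log2 difference of 1.33 (SE 0.49, adjusted p = 0.842) was the smallest of the 17. The annotation places Pou2f1, Gm32999 and Gm23402 over Cd247.

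Promoter windows from RefSeq (GRCm38.p6), 250 bases upstream of a start, are shown for the CD3 cluster and for Cd8a, whose counts moved together, so that the letters can be read beside the values. Capitals mark matches on either strand to 4 short motifs. The letters TGTGGT stand for RUNX factors. The letters AGGAAG stand for ETS factors. The letters CTTTGT stand for TCF/LEF factors, and AGATAA for GATA factors. No 2 of the matches shown overlap. The windows are Cd3d chr9:44981536-44981785, plus strand, Cd3e chr9:45009612-45009861, minus strand, Cd3g chr9:44980432-44980681, minus strand, and Cd8a chr6:71373177-71373426, plus strand.

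Cd3d: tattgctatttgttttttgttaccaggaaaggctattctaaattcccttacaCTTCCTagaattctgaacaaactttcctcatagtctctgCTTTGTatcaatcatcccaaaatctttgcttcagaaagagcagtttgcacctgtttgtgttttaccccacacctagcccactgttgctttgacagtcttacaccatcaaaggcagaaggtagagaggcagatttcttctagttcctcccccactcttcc

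Cd3e: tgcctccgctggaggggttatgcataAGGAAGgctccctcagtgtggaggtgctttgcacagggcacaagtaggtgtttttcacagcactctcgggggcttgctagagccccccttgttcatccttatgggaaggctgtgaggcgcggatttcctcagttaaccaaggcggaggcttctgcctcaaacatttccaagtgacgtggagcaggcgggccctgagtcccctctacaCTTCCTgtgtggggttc

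Cd3g: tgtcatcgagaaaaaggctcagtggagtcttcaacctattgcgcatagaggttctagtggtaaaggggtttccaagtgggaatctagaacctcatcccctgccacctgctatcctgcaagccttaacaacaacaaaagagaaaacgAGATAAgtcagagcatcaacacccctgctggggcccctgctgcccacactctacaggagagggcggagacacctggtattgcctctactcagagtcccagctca

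Cd8a: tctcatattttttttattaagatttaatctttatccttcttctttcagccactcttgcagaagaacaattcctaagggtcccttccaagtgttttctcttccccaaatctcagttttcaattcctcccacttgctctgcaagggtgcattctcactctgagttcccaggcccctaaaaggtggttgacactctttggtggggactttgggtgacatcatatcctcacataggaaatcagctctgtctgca

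Cd3d held an ETS and a TCF/LEF match, Cd3e 2 ETS matches, Cd3g a GATA match, and Cd8a none of these letters. Of the 40 genes, 27 had a window in the table. The ETS letters were in 15 of 27 (55.6%), against 32.3% of 27025 genes, RUNX in 8 (29.6%, against 15.9%), TCF/LEF in 7 (25.9%, against 18.6%) and GATA in 3 (11.1%, against 11.4%). A match is a description of letters and not a bound site.

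The coreceptors split T cells into the CD8 class, which sees MHC class I, and the CD4 class, which sees class II. Cd8a had 98, 41 and 22 counts in the knockout libraries, against 2, 4, 5 and 5 in treated wild-type and 0, 3, 2 and 1 in chow. Its partner Cd8b1, 35.9 kb away, had 83, 36 and 18, against 0, 4, 6 and 2 and then 0, 2, 1 and 1. Cd4 had 104, 24 and 20, against 6, 1, 7 and 6 and then 1, 3, 3 and 14. For all 3 coreceptor genes the knockout libraries did not overlap either wild-type group. Cd8a had the smallest p of the 17 in the knockout comparison, at a log2 fold change of 3.50 (SE 0.66), and did not pass the correction over all genes (edgeR adjusted p = 0.656). By counts pooled over libraries, Cd8a was 11.01-fold higher in knockout than in treated wild-type aorta (95% interval 6.57 to 19.7, counting error only), and 6.05-fold without KO_HFD_LNAME 1 (3.45 to 11.2). Cd8b1 and Cd4 stood at log2 3.64 (SE 0.79) and 3.12 (SE 0.79), with an adjusted p of 0.726 each.

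The share of Cd8a in the counts of Cd8a plus Cd4 was 48.5%, 63.1% and 52.4% in knockout libraries 1, 2 and 3 (95% Clopper-Pearson intervals 41.4 to 55.6, 50.2 to 74.7 and 36.4 to 68.0). Over the treated wild-type libraries it was 44.4% of 36 counts (27.9 to 61.9), and over chow libraries 22.2% of 27 counts (8.62 to 42.3). Of the 21 chow counts of Cd4, 14 came from WT_CD 4, and without that library, left out after seeing the data, the chow share was 41.7% of 12 counts (15.2 to 72.3). Knockout and treated wild-type intervals overlapped, so no difference in this ratio was detectable at this depth. The genes differ in length, so the share is not a share of cells.

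Of the other coreceptor and costimulation genes, only Cd2 was tested. Cd2, an adhesion receptor of T and NK cells, had 61, 10 and 26 counts in knockout libraries, against 6 to 14 in treated wild-type, where the groups overlapped. Cd27, a survival receptor of T cells, had 46, 6 and 7 counts, against 0 to 3 in treated wild-type libraries and a single count over all chow libraries. Cd6, a modulator of receptor signals, had 32, 10 and 14, against 2 to 5 and 1 to 5. Both lay above all wild-type libraries, and Cd5, Cd28, Icos and Ctla4 did not. The checkpoint gene Ctla4 had 18, 3 and 4 counts in knockout libraries and 1, 6, 7 and 2 in treated wild-type, so its higher total rested on KO_HFD_LNAME 1. Icos, a costimulatory receptor of activated T cells, reached 12 counts in WT_CD 4, more than in knockout libraries 2 and 3.

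Among the signalling genes, Lck had the most counts of the 40 genes. It had 136, 55 and 49 counts in the knockout libraries, 13, 12, 19 and 11 in treated wild-type and 1, 4, 5 and 9 in chow. The 3 groups did not overlap, in the order chow, treated wild-type, knockout. Il7r had the same order, and these 2 of 40 (5%) are close to the 4.23% of all genes with a count that have treated wild-type above chow libraries without overlap. Lat, the scaffold downstream of ZAP70, had 114, 38 and 31 counts, against 12, 6, 21 and 14 and then 7, 6, 10 and 15. Knockout against treated wild-type gave log2 2.31 (SE 0.50) for Lck and 2.01 (SE 0.54) for Lat, each with an edgeR adjusted p of 0.726. Ptprcap, which encodes a protein bound to CD45, had 129, 21 and 22 counts, against 10, 11, 19 and 11 in treated wild-type, and 0 to 12 in chow; in scaled CPM its knockout libraries overlapped the treated wild-type ones.

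Zap70 and the adaptor Sh2d1a (SAP), untested in the main fit, also lay above all wild-type libraries. Zap70 had 43, 11 and 10 counts, against 2, 2, 1 and 4 in treated wild-type. Sh2d1a had 13, 10 and 3 counts against a single count in WT_HFD_LNAME 3, a ratio of 28.4 with a counting interval of 4.67 to 1166. Chow libraries had 1, 0, 2 and 2 counts of Sh2d1a, a ratio of 4.99 (1.88 to 16.6), and the 3 counts of KO_HFD_LNAME 3 were only 1 above the highest chow count. Skap1, Txk and Themis, which encode a T cell adaptor, a TEC family kinase and a thymocyte selection protein, had 46, 16 and 10 counts over all knockout libraries and 14, 7 and 3 over treated wild-type ones.

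The lineage genes begin with Tcf7, which encodes TCF1, a factor of T cell development and of naive and memory cells. It had 102, 62 and 25 counts in knockout libraries, against 7, 11, 5 and 17 in treated wild-type and 3, 4, 6 and 9 in chow, with no overlap. Skp1 overlaps Tcf7 in the annotation. Il7r, the alpha chain of the receptor for the survival cytokine IL-7, had 60, 26 and 30 counts, against 11, 9, 8 and 10 and then 5, 5, 1 and 6. Knockout against treated wild-type gave log2 2.43 (SE 0.51) for Tcf7 and 1.79 (SE 0.48) for Il7r, with an edgeR adjusted p of 0.726 for each. Foxp3, the factor of regulatory T cells, had 15, 0 and 2 counts in knockout libraries and 0 in all treated wild-type ones, so its pooled level was at least 6.20-fold higher against a floor of 3 counts over the group, and 15 of the 17 counts came from KO_HFD_LNAME 1. Foxp3 is overlapped by Flicr and Ccdc22. Bcl11b, a T cell commitment factor, had 41, 11 and 15 counts against 0 to 9 in treated wild-type libraries. Lef1, Eomes and Tbx21 had 11, 19 and 23 counts over all knockout libraries, mostly in KO_HFD_LNAME 1.

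The cytotoxic and NK genes were lower and less uniform. Nkg7, a granule protein of cytotoxic cells, had 35, 11 and 25 counts in knockout libraries, against 5, 3, 8 and 2 in treated wild-type and 0, 1, 3 and 1 in chow. Gzma had 18, 22 and 10, against 6, 2, 10 and 3 and then 0, 2, 2 and 4; Cdc20b overlaps it. Klrd1, which encodes the receptor chain CD94, had 21, 8 and 12, against 6, 3, 8 and 2 and then 0, 0, 1 and 3. In scaled CPM none of the 8 genes of this role held all 3 knockout libraries above all treated wild-type libraries. Ms4a4b, a T cell membrane protein and the only tested gene of the role, had 94, 13 and 15 counts against 1, 5, 23 and 2, so WT_HFD_LNAME 3 exceeded knockout libraries 2 and 3.

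The granzyme Gzmb was the 1 gene of the 40 whose pooled level was lower in knockout than in treated wild-type aorta. It had 1, 3 and 3 counts against 4, 1, 3 and 3, a ratio of 0.696 (counting interval 0.229 to 1.97), which includes no difference. Perforin, Prf1, had 9, 2 and 3 counts against 0, 0, 1 and 5, Gzmk 3, 0 and 3 against 1, 0, 2 and 1, and Klrk1, which encodes the NK receptor NKG2D, 20, 10 and 8 against 3, 3, 7 and 1. Each of these sits close to the counting floor in several libraries. The summed cytotoxic and NK genes were 3.23-fold higher in knockout than in treated wild-type aorta and 1.83-fold higher without KO_HFD_LNAME 1, against 6.20-fold and 2.79-fold for the receptor and CD3 genes. The cytotoxic value moved with WT_HFD_LNAME 3: without that library the cytotoxic and NK sum was 4.96-fold higher and the receptor and CD3 sum 6.76-fold, and with KO_HFD_LNAME 1 left out too they were 2.80-fold and 3.04-fold higher. The difference between the roles was not tested.

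For the knockout against treated wild-type comparison as a whole, edgeR called 0 of the 17 tested genes, beside 0.0140% of all 14303 genes (2 genes). All 17 were higher, by log2 1.33 to 3.70 with a median of 2.44 against -0.01 over all genes, and all 17 had an unadjusted p under 0.05, as did 5.12% of all genes. Since 13 of the 17 passed the filter through the high group, these counts describe and do not support. Without KO_HFD_LNAME 1, log2 fold changes were followed for 14 of the 17 genes. They ran from 0.43 (Ms4a4b) to 2.67 (Cd8b1), with an edgeR adjusted p of 0.989 each. Among them were Trac at 0.68, Cd3g at 1.87, Cd4 at 1.74, Trbc1 at 2.16, Lck at 1.50 and Cd8a at 2.52. DESeq2 on the same counts called 8 higher, Cd3e, Cd3g, Trbc1, Trbc2, Cd8a, Cd8b1, Lck and Tcf7, where it called 0.133% of all genes higher; without KO_HFD_LNAME 1 it called 0 of the 17 (0.0839% of all genes), and it called 6 without KO_HFD_LNAME 2 (0.273%) or without KO_HFD_LNAME 3 (0.189%). The authors' deposited table also has 8 called higher, with Cd4 in place of Cd3e, of 29 with an adjusted p, beside 0.251% of its genes. The log2 fold changes in the authors' deposited table are smaller, 1.12 for Cd8a and 1.04 for Lck, and whether they were shrunk is not stated.

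**Figure D3:**
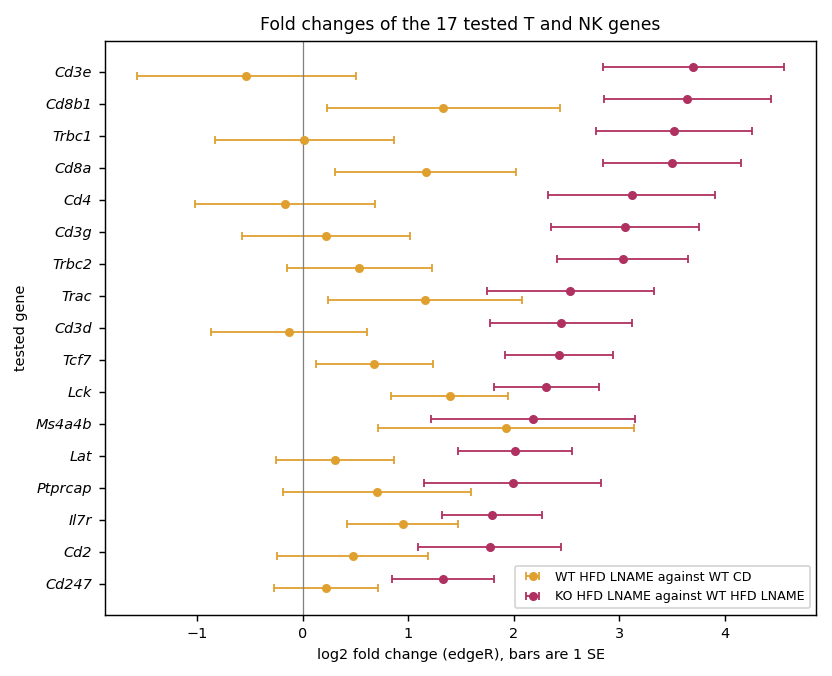
Log2 fold change (edgeR) of the 17 tested genes, points with bars of 1 SE, for treated against chow wild type (orange) and knockout against treated wild type (red). The comparisons share the treated wild-type libraries; the red points run from 1.33 (Cd247) to 3.70 (Cd3e), and no gene passed an adjusted p of 0.05 in either comparison.

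Ranks of libraries, which KO_HFD_LNAME 1 cannot dominate by its size, gave counts over all 40 genes. In scaled CPM, 18 of 40 (45%) had all 3 knockout libraries above all 4 treated wild-type libraries, against 3.65% of the 21147 genes with a count. The 18 were all 7 receptor and CD3 genes, Cd8a, Cd8b1, Cd4, Cd6, Cd27, Lck, Zap70, Lat, Sh2d1a, Tcf7 and Il7r. The same 18 lay above all 8 wild-type libraries, against 1.06% of genes. Leaving out KO_HFD_LNAME 1 cannot change a count that the lowest knockout library sets, since it is the highest library for 39 of the 40 genes. Without it the count stayed at 18, where the share of all genes is 6.76%. The count was 28 without KO_HFD_LNAME 2, where the share of all genes is 6.45%, and 20 without KO_HFD_LNAME 3 (6.77%). Taken singly, KO_HFD_LNAME 1 exceeded all wild-type libraries for 39 of the 40 genes, against 8.73% of genes with a count. KO_HFD_LNAME 2 did so for 20, against 7.51%, and KO_HFD_LNAME 3 for 28, against 8.92%.

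Treated against chow wild-type aorta showed no call among the 40 genes. EdgeR called 0 of 17 tested genes where it called 1.48% of all genes, and DESeq2 called 0, with 6.22% of all genes called. The authors' deposited table has 0 called of 31 with an adjusted p, beside 3.43% of genes called higher. Lck was the 1 tested gene with an unadjusted p under 0.05 (15.1% of all genes), at log2 1.39 (SE 0.55, edgeR adjusted p = 0.255). Lck and Il7r (0.95, SE 0.53, adjusted p = 0.433) were the 2 of 40 without overlap, against 4.23% of genes. Tcf7 and Cd8a stood at 0.68 (SE 0.55) and 1.16 (SE 0.85), and the receptor and CD3 genes at -0.53 to 1.16. The summed cytotoxic and NK genes were 3.10-fold higher than in chow and 2.02-fold without WT_HFD_LNAME 3, on 3 to 16 counts per chow library.

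Knockout against chow aorta differs in genotype, diet and inhibitor at once, and may differ in age and time on diet. It shares libraries with the other comparisons. Here edgeR called Lck (log2 3.70, SE 0.55, adjusted p = 0.0304), Cd8a (4.66, SE 0.75, adjusted p = 0.0405) and Tcf7 (3.10, SE 0.54, adjusted p = 0.0483) higher, 3 of 17, where it called 0.287% of all genes higher. Each was higher in 3 of 3 knockout libraries, and the call of all 3 was lost without KO_HFD_LNAME 1, without KO_HFD_LNAME 2, and without WT_HFD_LNAME 1 or 2 or WT_CD 1, 2 or 4, each left out alone. DESeq2 called 12 higher, beside 3.15% of genes, and 6 without KO_HFD_LNAME 1, beside 2.12% of genes. By rank, 30 of 40 had all knockout libraries above all chow ones, against 6.82% of genes.

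Other genes of T cell receptor signalling, many of them also active outside T cells, had lower fold changes. Of 30 such genes, 19 were tested and 0 were called in the knockout comparison; their median was 0.51, and the lowest p was that of the adaptor Lcp2 (SLP-76; log2 1.39, SE 0.31, adjusted p = 0.726), followed by Rhoh (1.93, SE 0.53). Lcp2 had 87, 62 and 70 counts, against 17 to 28 in treated wild-type, without overlap, and is also made by myeloid cells and platelets. Against chow, treated wild-type aorta had less Lax1, an inhibitory adaptor of lymphocytes (-1.39, SE 0.29, adjusted p = 0.0439). Of 23 other NK and cytotoxic genes 2 were tested, the interleukin receptor Il2rb and the chemokine Ccl5, with 0 called; Ccl5 had 346 counts in KO_HFD_LNAME 1 and 42 and 35 in the others, against 11 to 36 in treated wild-type. The NK receptor genes Ncr1 and Klrb1c had at most 6 and 5 counts in any library. Of 12 activation and checkpoint genes 5 were tested and 0 called, with a median of -0.05 that covers these 5 alone. Ikzf2 and Lag3 of this list held 77 to 157 and 25 to 110 counts per library. Genes with fewer counts varied. Tnfrsf18 had 19, 10 and 5 counts in knockout libraries, against 4, 1, 2 and 4 in treated wild-type. Cd69 had 24, 7 and 5 against 1, 3, 7 and 4, and Havcr2 10, 2 and 9 against 2, 5, 8 and 3. Of 16 gamma-delta T and innate lymphoid genes, 7 were tested and 0 called in the knockout comparison. Gata3, a factor of T helper and innate lymphoid cells, was higher in treated than in chow wild-type aorta (1.85, SE 0.38, adjusted p = 0.0432). In treated wild-type libraries it was at 5.39 to 14.2 CPM, where the receptor and CD3 sum was at most 4.55 CPM. Gata3 was highest in WT_HFD_LNAME 4, whose 40-gene sum was 13.8 CPM, against 23.3 CPM in WT_HFD_LNAME 3. Il5 and Il13 of this list had at most 2 and 1 counts in any library. Which cells the Gata3 RNA came from was not tested.

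Markers of other immune cells moved with these genes, unequally between knockout libraries. The B cell genes Ms4a1, Cd79a and Cd79b summed to 487 counts in KO_HFD_LNAME 1, 36 and 58 in libraries 2 and 3, and 12 to 111 in treated wild-type. The B cell and plasma cell list holds 13 genes, of which 7 were tested and 0 called in the knockout comparison, with a median log2 fold change of 1.62. Ighm, the heavy chain of IgM, had 4507, 1688 and 1586 counts, against 612, 458, 2825 and 1211 in treated wild-type and 81 to 275 in chow; treated against chow, 2 of the 7 were called higher, Ighm and Igkc. Without KO_HFD_LNAME 1 the mean CPM of Ms4a1, Cd79a and Cd79b was 0.734 times that of treated wild-type aorta, where the receptor and CD3 genes were at 2.79 times. That B cell value turns with WT_HFD_LNAME 3: with both libraries left out, a choice made after seeing the data, it was 1.28 times, and the receptor and CD3 genes were at 3.04 times. Receptor and CD3 counts per 100 counts of these B cell genes were 126 in KO_HFD_LNAME 1, 486 and 260.3 in libraries 2 and 3, 48.6 to 217 in treated wild-type and 150 to 717 in chow, so the groups overlapped. WT_HFD_LNAME 3, at 111 B cell counts, held 54 receptor and CD3 counts, and WT_HFD_LNAME 4, at 38 B cell counts, held 55. Scaled to CPM, the receptor and CD3 sum was 4.55 in WT_HFD_LNAME 3 and 3.77 in WT_HFD_LNAME 4. The 40-gene sum was 23.3 and 13.8 CPM. By both sums WT_HFD_LNAME 3 was the highest of the treated wild-type libraries. Of the 7 lymph node stroma genes, 4 to 6 were above 0 in knockout libraries. In treated wild-type libraries 2 to 5 were above 0, and in chow libraries 2 to 4. Ccl21a was 0 in all 11 libraries. The sum of the 7 genes was 74.8 CPM in KO_HFD_LNAME 1, and at most 10.9 CPM in any other library. The part of B cell and lymph node RNA in the T cell values was not tested.

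Some thymocyte genes had more counts in knockout libraries. Of the 10 genes of the list, which include Cd4 and Cd8a, 4 were tested and 0 called in the knockout comparison. Without Cd4 and Cd8a the list summed to 116 to 123 CPM in knockout libraries. The sum was 89.97 to 182 in treated wild-type and 69.9 to 181 in chow libraries, which overlapped. Most of it in every library was Rmnd5a (64.5 to 73.9 CPM) and Cd1d1 (4.89 to 113 CPM). The sum therefore cannot show changes in the other genes of the list. Rag1, which with Rag2 cuts receptor genes for rearrangement in developing lymphocytes, had 9, 48 and 13 counts, against 1, 6, 1 and 0 in treated wild-type and at most 1 in chow. Dntt, which adds bases at the joins, had 6, 18 and 4, against 0, 1, 0 and 4, and the thymic homing receptor Ccr9 31, 25 and 10 against 1, 1, 3 and 0. Ptcra, the receptor chain of immature T cells, had 0, 2 and 0 counts, against 0 to 4 in wild-type libraries. The sum of Rag1, Rag2, Dntt and Ptcra was 16 to 72 counts in knockout libraries, highest in KO_HFD_LNAME 2, and 1 to 11 in treated wild-type. Of the thymic epithelial genes, Foxn1 was 0 in all 11 libraries. Prss16 had 13 counts in KO_HFD_LNAME 3, where the epithelial keratin Krt8 had 103. The other libraries had 0 to 1 of Prss16 and 1 to 27 of Krt8. The rest of the list did not set KO_HFD_LNAME 3 apart. Ccl25 had 27 counts there, against 7 to 34 in wild-type libraries. Krt5 had 0, 1 and 1 counts in knockout libraries, and Psmb11 2, 1 and 3. Without KO_HFD_LNAME 1 and 2 together, which leaves KO_HFD_LNAME 3 alone, the 40-gene sum was 2.50-fold that of treated wild-type aorta. KO_HFD_LNAME 3 is the library with the Prss16 and Krt8 counts above. It also held 18 counts of Rag1, Rag2, Dntt and Ptcra. The part of thymic tissue in the T cell values was not tested.

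**Figure D4:**
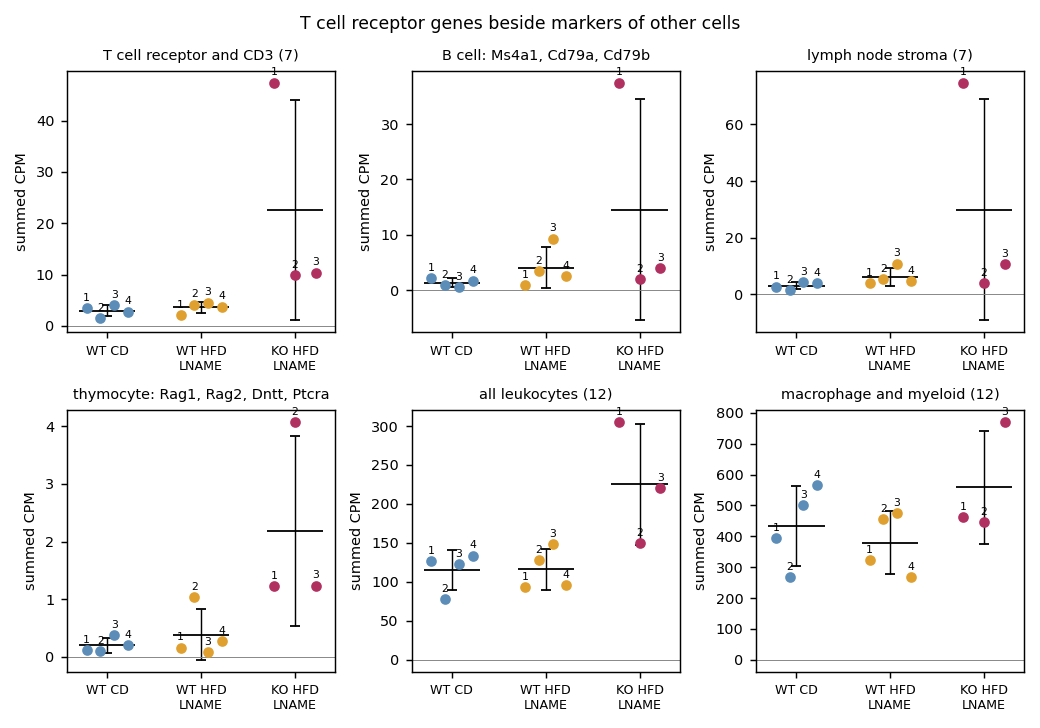
Summed CPM per library (points, numbered by replicate) of the receptor and CD3 genes and of 5 sets of marker genes, with group mean (line) and SD (bar), on linear axes that differ between panels. KO HFD LNAME 1 leads the T, B, lymph node and leukocyte panels, KO HFD LNAME 2 the thymocyte panel and KO HFD LNAME 3 the myeloid panel.

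General leukocyte genes differed less in level than the T and NK genes. The 12 leukocyte genes were 1.93-fold higher in summed CPM in knockout than in treated wild-type aorta (1.59-fold without KO_HFD_LNAME 1), and all 12 were tested with 0 called; Cd52 (log2 1.50, SE 0.33) and Laptm5 (0.95, SE 0.23) had the lowest p, each with an adjusted p of 0.726. Counts of the 40 genes per 100 counts of those leukocyte genes were 6.96 to 9.40 in chow, 11.9 to 15.8 in treated wild-type, and 52.6, 24.8 and 18.1 in knockout libraries 1, 2 and 3. The 3 groups did not overlap on this ratio, which was not tested. Per 100 counts of Ptprc, the gene of the pan-leukocyte protein CD45, they did overlap, with 166 to 321 in chow, 199 to 518 in treated wild-type and 513, 396 and 322 in knockout libraries 1, 2 and 3. Of 12 macrophage and myeloid genes, 0 were called, and their sum was 1.47-fold higher in knockout aorta (1.60-fold without KO_HFD_LNAME 1).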

How the data were processed

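Per the labels' protocols, RNA of whole aorta was isolated with TRIzol and sequenced as NEBNext Ultra II libraries. The authors deposited whole-number read counts per Entrez gene. Per the submitters' processing notes, the tools named are Trimmomatic 0.39, HISAT2 2.2.1, featureCounts 2.0.3 and, for the comparison tables, DESeq2 (Galaxy 2.11.40.7); the build is GRCm38/mm10. Strand use, multimapped reads and the annotation are not given in the sources used here, so reads of overlapping genes cannot be told apart. The authors also deposited log2 fold changes and p-values with adjusted p-values for 2 comparisons.

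Counts were analysed in R 4.3.3 with edgeR 4.0.16: filterByExpr (minimum count 10) kept 14303 genes, with TMM scaling, 1 mean per group over all 11 libraries, robust glmQLFit and two-sided glmQLFTest. A gene was called at a Benjamini-Hochberg adjusted p under 0.05 over all tested genes; SE is taken from the F statistic. Adjusted p-values are from edgeR unless another tool is named; DESeq2 1.42.0 is an alternative. Non-overlap was read from scaled CPM. Intervals (95%) and floors cover counting error only. Exon lengths are from GENCODE M21, positions from GRCm38.p6. On simulated counts for the knockout against treated wild-type comparison (14303 genes), 76% of 4-fold and 93% of 16-fold changes were recovered. The changed genes were drawn at random from all tested genes. These shares therefore do not give the recovery for the low-count genes described here.

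The 40 genes and the lists were chosen with earlier results of these data known. Genes shown library by library are those called, the receptor and CD3 genes, a set list of coreceptor, lineage and cytotoxic genes, and the 5 of smallest p per main comparison; of other lists, called genes or the 2 of smallest p. Single genes beyond these were chosen after their values were seen. A gene of 1 list was left out and is not reported here.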

Additional observations from a re-analysis of the deposited data

Results flagged for a closer look

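Of 50 checks of single libraries against their group, 2 stood out by the gap to the nearest other library, and chance gives about 1 in 20. Summed T cell signalling genes were at 5.9 CPM in WT_HFD_LNAME 3, against 3.15 to 3.39 CPM in the other 3 libraries of that group. Foxp3 was at 0.1 CPM in WT_CD 2, a single count, against 0 in the other 3 chow libraries. Groups of 3 libraries were not checked, so KO_HFD_LNAME 1 could not be reached by this check.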

How the results depend on the processing

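Treated against chow wild type kept 0 called genes of the 40 under all 20 alternatives. Knockout against treated wild type had 0 called in 21 of 24 alternatives; DESeq2 called 8, and it called 6 without KO_HFD_LNAME 2 or without KO_HFD_LNAME 3. The DESeq2 tests without a library were added after seeing the data. Over those alternatives the tested genes' median log2 fold change ran from 1.39 to 2.92, and that of all genes from -0.05 to 0.00. Knockout against chow had 3 called (0.315% of all genes called) and 12 with DESeq2 (3.96%). In DESeq2 this comparison had 6 without KO_HFD_LNAME 1 (2.12%), 16 without KO_HFD_LNAME 2 (2.73%) and 13 without KO_HFD_LNAME 3 (1.97%). It had 0 with only the 2 groups fitted, 0 with a replicate block, 0 without WT_CD 1 and 2, 1 without WT_HFD_LNAME 3 and 4, 1 without WT_HFD_LNAME 3 and KO_HFD_LNAME 1, and 0 without KO_HFD_LNAME 1 and 2 (added after seeing the data). Leaving out 1 library gave 0 to 5: 0 without KO_HFD_LNAME 1 or 2, WT_HFD_LNAME 1 or 2 and WT_CD 1, 2 or 4, 1 without WT_HFD_LNAME 4, 2 without WT_CD 3 and 5 without WT_HFD_LNAME 3. The causes were not tested. Over all genes, edgeR called 212, 2 and 45 in the 3 comparisons, and DESeq2 890, 38 and 567. Over the edgeR alternatives, at most 102 of all genes were called for knockout against chow.

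The replicate block changed no other count of called genes. Replicate numbers share only a number: same-numbered libraries correlated at -0.226 to 0.586 in their deviations from group means.

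Signs turned only among uncalled genes of treated against chow wild type. Leaving out 1 library gave -0.22 to 0.19 for Cd3d, -1.36 to 0.18 for Cd3e and -0.17 to 0.57 for Cd3g. It gave -0.049 to 0.45 for Cd247, -0.27 to 0.31 for Trbc1 and -0.43 to 0.72 for Cd4. Cd3d passed the filter in only 6 of these 11 fits. Without WT_HFD_LNAME 3 and 4, Cd3g was -0.32, Trbc1 -0.33 and Trbc2 -0.026; Trbc2 was -0.032 without WT_CD 1 and 2, and Cd3g -0.17 without WT_HFD_LNAME 3 and KO_HFD_LNAME 1.

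Depth limits the low genes: 3 counts are 0.170 to 0.358 CPM, and 23 of the 40 genes were not tested.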
